A study of Rattus norvegicus with 30 samples.

Results

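Endothelial cells carry much of the machinery that starts, limits and dissolves blood clots, and 9 of its genes were followed here in rat lung: Vwf, F8, F3, Tfpi, Tfpi2, Thbd, Procr, Plat and Plau. They were taken by name from the gene table, as procoagulant, anticoagulant and fibrinolytic genes of endothelium. The choice was made with earlier results of these data known. All 9 were among the 30562 rows of the table, each with 1 row, and all 9 were among the 16171 genes abundant enough to test. At 3 weeks after surgery, 8 of the 9 differed between Glenn and sham lungs averaged over diets, as did 48.2% of all genes tested. Of the 9, Tfpi2, Plau and Procr rose, and Thbd, Tfpi, Plat, Vwf and F8 fell. Tfpi2 rose 13.9-fold and Thbd fell by 1.40 on the log2 scale, that is 2.64-fold.

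The samples were lung cells of wild-type Rattus norvegicus, enriched on microbeads for CD31, a surface protein of endothelium, and collected 3 weeks after the operation. Rats had either sham surgery or Glenn surgery, a cavopulmonary connection that sends venous blood from the upper body straight into the pulmonary artery, without the blood coming from the liver. Within each surgery, the diet was a control diet, one deficient in vitamin A or one with an excess of it, which gave 6 groups of 5 libraries. Strain, age, sex and the number of animals behind a library are not given in the sources used here, so p-values measure the spread between libraries, whatever its source.

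Clotting starts when blood meets tissue factor, the product of F3, which binds factor VIIa and leads to thrombin. Resting endothelium holds this in check in several ways: TFPI blocks tissue factor with factor VIIa, thrombomodulin (Thbd) turns thrombin into an activator of protein C, and the endothelial protein C receptor (Procr) presents protein C to it. Once fibrin has formed, tissue-type and urokinase-type plasminogen activators (Plat and Plau) produce plasmin, which dissolves it. In the lung, the endothelium of large vessels stores much von Willebrand factor, and capillaries are rich in thrombomodulin.

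Starts of transcription in RefSeq (build GRCr8) were listed for 4 of the 9 genes, at 5 start sites: 2 of Tfpi and 1 each of Tfpi2, Procr and Plau. No entry was found for Vwf, F8, F3, Thbd and Plat. The 250 bases before the start are shown, 5′ to 3′ on the gene's strand, for Tfpi2, which rose most, for its relative Tfpi, which fell, and for Procr, the matched gene in which a searched motif was found. Capitals mark motif matches.
Tfpi2, chr4:32941277-32941526, minus strand: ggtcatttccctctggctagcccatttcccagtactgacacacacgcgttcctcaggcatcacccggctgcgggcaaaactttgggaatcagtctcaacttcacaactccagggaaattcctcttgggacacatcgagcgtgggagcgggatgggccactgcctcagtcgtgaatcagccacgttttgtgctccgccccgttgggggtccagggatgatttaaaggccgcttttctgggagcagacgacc
Tfpi, first start site, chr3:89983544-89983793, minus strand: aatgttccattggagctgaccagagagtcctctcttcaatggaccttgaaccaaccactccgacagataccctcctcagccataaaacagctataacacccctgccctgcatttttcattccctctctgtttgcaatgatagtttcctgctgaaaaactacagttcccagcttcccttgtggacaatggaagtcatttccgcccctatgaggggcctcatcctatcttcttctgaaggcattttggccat
Tfpi, second start site, chr3:89980725-89980974, minus strand: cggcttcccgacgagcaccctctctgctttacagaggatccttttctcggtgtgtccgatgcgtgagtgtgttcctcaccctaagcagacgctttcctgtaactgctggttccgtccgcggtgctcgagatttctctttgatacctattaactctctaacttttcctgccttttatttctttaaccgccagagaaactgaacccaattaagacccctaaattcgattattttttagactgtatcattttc
Procr, chr3:164714477-164714726, plus strand: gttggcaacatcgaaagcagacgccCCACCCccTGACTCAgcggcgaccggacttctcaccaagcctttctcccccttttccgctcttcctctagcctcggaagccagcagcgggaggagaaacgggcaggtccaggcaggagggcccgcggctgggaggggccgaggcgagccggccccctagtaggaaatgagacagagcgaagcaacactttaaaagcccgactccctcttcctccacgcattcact

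Motifs, 4 in all, were searched on both strands: CCACCC, the CACCC box of Krüppel-like factors; TGACTCA, the AP-1 site; AGGTCA, a nuclear receptor half-site; and TATAAA, the TATA box. Procr held CCACCC at -225 to -220 and TGACTCA at -217 to -211 before its start, as capitals in the sequence above, and these matches do not overlap. No match to the letters of any of the 4 was in the windows of Tfpi2, Tfpi or Plau. Over all 33469 RefSeq promoters of the same length, 26.1% held CCACCC, 4.05% TGACTCA, 14.1% AGGTCA and 12.9% TATAAA. The windows of Tfpi2, Procr and Plau were 57.2%, 62.8% and 60% G or C, and the pair of Tfpi windows 47.6% and 45.6%, beside a median of 51.2% over all promoters.

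Libraries held 22 to 77.6 M counts (M, mega; median 40 M). They fell into 2 series by the number in the library name, 22 in series A and 8 in series B, and series B libraries were in the sham deficient (3), Glenn deficient (2) and Glenn excess (3) groups only. The major histocompatibility gene RT1-CE16 was low (21.9 to 44.2 CPM, which are counts scaled to 1 M per library) in 17 libraries and high (407 to 945 CPM) in 13. All 5 sham excess libraries were RT1-CE16-low, and each other group held both kinds. The fit therefore contained the series as a term, and results that rest on the RT1-CE16-high libraries are also given without them.

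The lists of cell type markers showed endothelium together with other lung cells. The 8 endothelial markers were all detected and summed to 8170 to 10090 CPM in the 15 sham libraries and to 5906 to 8522 CPM in the 15 Glenn libraries, a ratio of medians of 0.811. Of the 8, 5 were lower after Glenn and 2 higher, Tie1 at 0.28 (edgeR adjusted p = 0.000431) and Emcn at 0.21 (adjusted p = 0.0218). Cdh5, the adhesion protein of endothelial junctions, averaged 2427 ± 196 CPM (SD, n = 15) after sham and 2044 ± 235 CPM (n = 15) after Glenn, and its log2 change was -0.25 (SE 0.06, edgeR adjusted p = 0.00036). For Pecam1, which encodes CD31, the log2 change was -0.16 (SE 0.07, edgeR adjusted p = 0.0692). Markers of alveolar type 2 cells, the surfactant-making epithelium, summed to 37080 to 63580 CPM after sham and 26220 to 59660 CPM after Glenn, and 7 of 7 were lower after Glenn. Of the 5 general capillary markers 4 were lower: Plvap, which made up most of the list's sum, by 1.69 (log2), against changes of -0.32 in Aplnr, -0.24 in Ptprb and -0.20 in Cd93, while Gpihbp1 was at 0.10 and not called. Aerocyte markers went from a median sum of 1766 to 1053 CPM with 4 of 6 lower. These were Car4 (-1.92), Prx (-1.79), Tbx2 (-1.65) and Ednrb (-1.21), while Apln, at 1.36, was higher. Mural markers (smooth muscle and pericytes) rose from 281.7 to 778.4 CPM with 9 of 9 higher, and lymphatic markers from 1652 to 3147 CPM with 6 of 6 higher. Arterial markers had a ratio of medians of 1.09, with 5 higher and 2 lower of 7. For venous markers it was 0.787, with 1 higher and 3 lower of 5. Fibroblast markers (ratio 1.35) were 6 of 7 higher, and alveolar type 1 markers (ratio 1.52) 3 higher and 1 lower of 4 tested. No listed marker was at 0 counts in the table. In these bulk samples, fewer cells of a type and less RNA per cell cannot be told apart, and the part of cell makeup in the changes below was not tested.

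**Figure D1:**
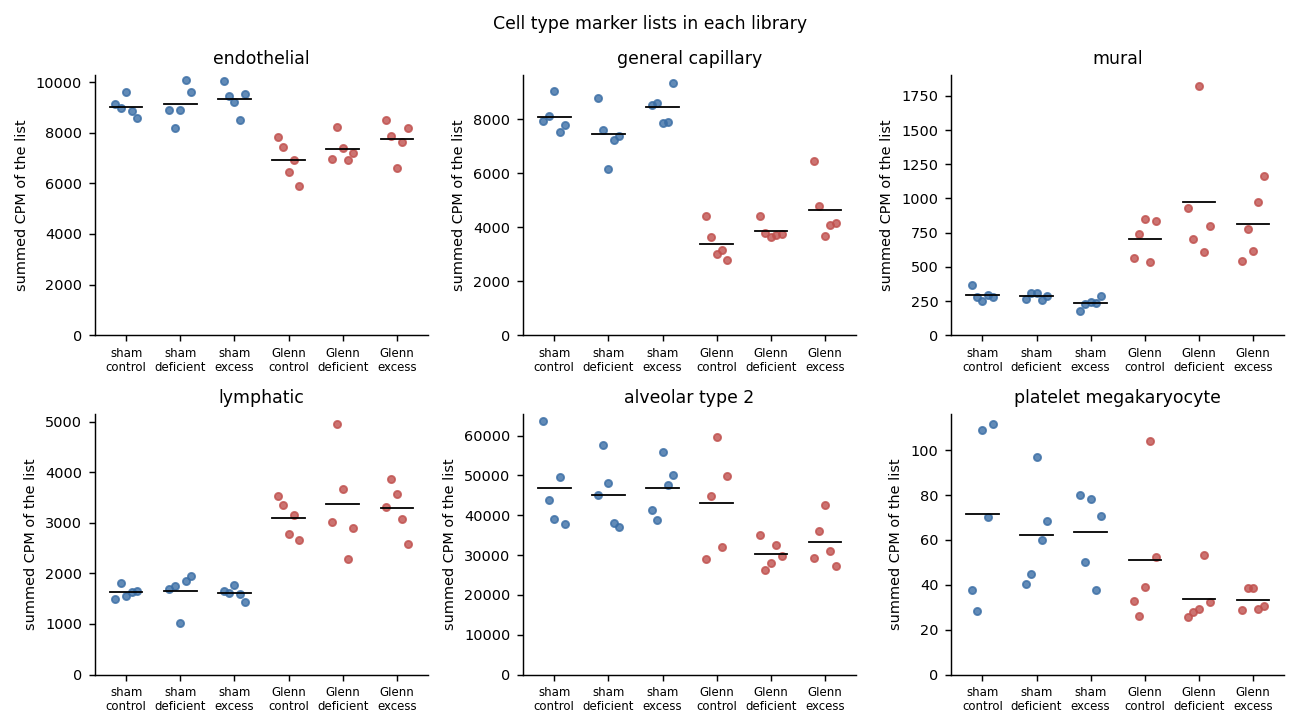
Summed CPM of 6 marker lists (y axes) in each library (points, sham blue and Glenn red) by surgery and diet group (x axes), with group means as bars. Every Glenn library lies above every sham library for mural and lymphatic markers; the general capillary sum, which follows Plvap (log2 change -1.69; the other 4 markers -0.32 to 0.10), has a median of 7908 CPM in sham lungs, against 3745 CPM in Glenn lungs.

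Von Willebrand factor (Vwf) tethers platelets to a damaged vessel wall and carries factor VIII, the cofactor encoded by F8, in the blood. On the control diet, Vwf stood at 1480, 1635, 2070, 1609 and 1910 CPM in the sham libraries, against 1217, 1009, 542, 651 and 704 CPM in the Glenn libraries. On the deficient diet it stood at 1761, 1405, 1166, 1394 and 1585 CPM in sham lungs, against 1208, 957, 1172, 693 and 783 CPM in Glenn lungs. On the excess diet the sham values were 1183, 1581, 1457, 1547 and 1609 CPM and the Glenn values 1631, 1212, 778, 1057 and 1051 CPM. The surgeries did not overlap on the control diet, overlapped narrowly on the deficient diet, and overlapped on the excess diet, where the library with the most Vwf was a Glenn library.

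Vwf fell by 1.08 (log2, SE 0.17, edgeR adjusted p = 1.29e-05) on the control diet and by 0.72 (SE 0.17, edgeR adjusted p = 0.0018) on the deficient diet. On the excess diet the fitted change was -0.12 (SE 0.18, edgeR adjusted p = 0.704), and -0.36 (adjusted p = 0.167) without the series term. Averaged over diets, Vwf fell by 0.64 (SE 0.10, edgeR adjusted p = 2.92e-06). Among RT1-CE16-low libraries alone, neither single-diet call was kept: the changes were -0.74 (adjusted p = 0.0713) on the control and -0.51 (adjusted p = 0.194) on the deficient diet. With series A alone, the same libraries on the deficient diet, it was -0.50 (adjusted p = 0.186) there. Markers of platelets and megakaryocytes, which also make von Willebrand factor, were low: their sum was 28.44 to 111.9 CPM after sham and 25.66 to 104 CPM after Glenn, with 6 of 7 lower after Glenn.

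F8 moved the same way on every diet. Its control-diet values were 72.9, 90.2, 85.6, 66.8 and 77.8 CPM in sham lungs, against 58.4, 69.6, 52.2, 45.4 and 40.4 CPM in Glenn lungs. On the deficient diet they were 93.0, 80.7, 60.6, 71.8 and 90.2 CPM in sham lungs, against 60.7, 47.6, 53.7, 54.8 and 56.2 CPM in Glenn lungs. On the excess diet they were 71.3, 92.3, 86.4, 96.0 and 78.4 CPM in sham lungs, against 62.5, 58.7, 47.8, 60.8 and 56.6 CPM in Glenn lungs. Only the excess-diet groups did not overlap, and on the other diets 4 of 5 Glenn libraries were below the lowest sham library. The log2 changes were -0.56 (SE 0.12), -0.56 (SE 0.12) and -0.50 (SE 0.14) on the control, deficient and excess diets, with edgeR adjusted p = 0.000953, 0.00112 and 0.00838. Averaged over diets, F8 fell by 0.54 (SE 0.07, edgeR adjusted p = 4.33e-07). The control-diet call was not kept among RT1-CE16-low libraries (-0.43, adjusted p = 0.0758), nor the excess-diet call with series A alone (-0.47, adjusted p = 0.0627).

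**Figure D2:**
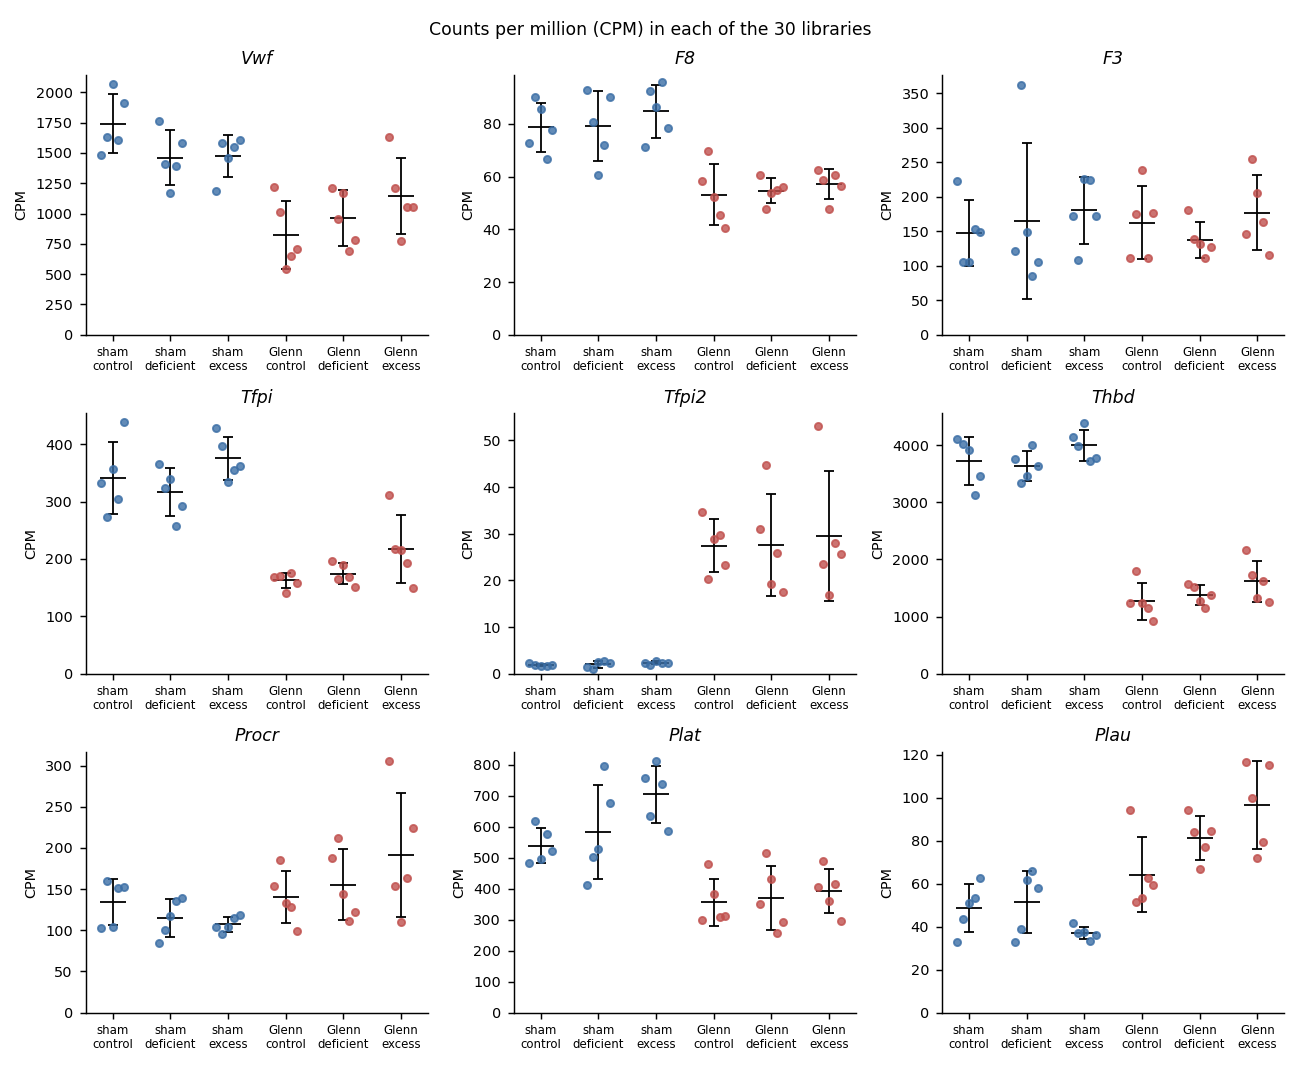
CPM (y axes, linear, from 0) of the 9 genes in each of the 30 libraries (points, sham blue and Glenn red) by surgery and diet group (x axes); bars show mean ± SD of 5 libraries. Within each diet, Thbd, Tfpi and Tfpi2 do not overlap between sham and Glenn libraries, while F3 overlaps on all 3.

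Tissue factor (F3) is the one gene of the 9 not called in any contrast. Its values were 223, 106, 105, 154 and 149 CPM in sham lungs, against 111, 174, 238, 112 and 177 CPM in Glenn lungs on the control diet. On the deficient diet they were 122, 361, 149, 84.6 and 105 CPM in sham lungs, against 180, 138, 131, 111 and 127 CPM in Glenn lungs. On the excess diet they were 172, 108, 225, 223 and 172 CPM in sham lungs, against 146, 254, 205, 163 and 115 CPM in Glenn lungs. The groups overlapped widely, and 1 sham deficient library was far above the rest. The change averaged over diets was 0.05 (SE 0.17, edgeR adjusted p = 0.827), with 0.14, -0.30 and 0.32 on the control, deficient and excess diets. On the excess diet, mean F3 was 180 CPM after sham and 176.6 CPM after Glenn. That is opposite in direction to the fitted 0.32, which includes the series term. Without sham deficient replicate 2 the deficient-diet value was 0.15. That library, with 361 CPM of F3, also held 57690 CPM of the alveolar type 2 markers, the highest of its group and the third highest of the 30 libraries, and its 31970 CPM of Sftpc, a surfactant protein of those cells, compared with 20540 to 26400 CPM in the other 4.

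Tfpi, the inhibitor of the tissue factor complex, fell on every diet without overlap between the surgeries. The control-diet values were 333, 273, 357, 305 and 439 CPM in sham lungs, against 168, 170, 141, 175 and 158 CPM in Glenn lungs. The deficient-diet values were 366, 324, 340, 258 and 293 CPM in sham lungs, against 196, 164, 190, 169 and 152 CPM in Glenn lungs. The excess-diet values were 428, 398, 334, 356 and 362 CPM in sham lungs, against 312, 218, 215, 192 and 150 CPM in Glenn lungs. The Glenn library highest in Tfpi, at 312 CPM, was on the excess diet and overlapped the sham libraries of other diets; the other 14 Glenn libraries lay below all 15 sham libraries. Tfpi fell by 1.07 (SE 0.12, edgeR adjusted p = 5.75e-08) on the control diet, by 0.92 (SE 0.12, adjusted p = 9.28e-07) on the deficient diet and by 0.62 (SE 0.13, adjusted p = 0.000832) on the excess diet. Averaged over diets it fell by 0.87 (SE 0.07, edgeR adjusted p = 1.8e-11), a 1.83-fold drop. Fitted on the 2 excess-diet groups alone, the change was -0.50 (adjusted p = 0.0661).

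Tfpi2 encodes a relative of TFPI that is deposited in the extracellular matrix and inhibits plasmin and trypsin. It was scarce in sham lungs and moved in the opposite direction from Tfpi. On the control diet it stood at 2.32, 1.80, 1.60, 1.65 and 1.93 CPM in sham lungs, against 34.7, 20.3, 28.8, 29.8 and 23.4 CPM in Glenn lungs. On the deficient diet the values were 1.47, 1.11, 2.54, 2.67 and 2.19 CPM in sham lungs, against 31, 44.7, 19.2, 25.9 and 17.5 CPM in Glenn lungs. On the excess diet they were 2.31, 1.85, 2.75, 2.24 and 2.31 CPM in sham lungs, against 53.2, 23.5, 16.9, 28.0 and 25.7 CPM in Glenn lungs. The lowest Glenn library, at 16.9 CPM, was far above the highest sham library, at 2.75 CPM. The log2 change was 3.88 (SE 0.29, edgeR adjusted p = 7.51e-11), 3.70 (SE 0.30, adjusted p = 2.85e-10) and 3.80 (SE 0.30, adjusted p = 4.64e-10) on the control, deficient and excess diets. Averaged over diets it was 3.79 (SE 0.17, edgeR adjusted p = 1.53e-16), against a median absolute change of 0.218 over all genes tested. The mural markers, 2.76 times higher after Glenn by their median sum, moved in the same direction as Tfpi2. Lymphatic (1.9 times), alveolar type 1 (1.52 times) and fibroblast (1.35 times) markers did too, among other lists. Sums of other lists fell, among them alveolar type 2, aerocyte and general capillary markers. The part of these cells in the rise of Tfpi2 was not tested.

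Thrombomodulin (Thbd) binds thrombin and redirects it from fibrin formation to the activation of protein C. Its control-diet values were 4102, 4024, 3910, 3121 and 3458 CPM in sham lungs, against 1232, 1791, 1230, 1143 and 925 CPM in Glenn lungs. The deficient-diet values were 3758, 3329, 3461, 4003 and 3627 CPM in sham lungs, against 1576, 1510, 1266, 1155 and 1373 CPM in Glenn lungs. The excess-diet values were 4133, 3979, 4380, 3716 and 3775 CPM in sham lungs, against 2166, 1720, 1329, 1613 and 1258 CPM in Glenn lungs. All 15 Glenn libraries lay below all 15 sham libraries, with 2166 CPM the highest Glenn and 3121 CPM the lowest sham value. Thbd fell by 1.56 (SE 0.13, edgeR adjusted p = 4.17e-10) on the control diet, by 1.45 (SE 0.14, adjusted p = 2.43e-09) on the deficient diet and by 1.19 (SE 0.15, adjusted p = 4.18e-07) on the excess diet. The averaged change was -1.40 (SE 0.08, edgeR adjusted p = 5.7e-15). Thbd averaged 3785 ± 341 CPM (SD, n = 15) after sham and 1419 ± 314 CPM (n = 15) after Glenn. Beside it, the 8 endothelial markers had a ratio of medians of 0.811. General capillary markers other than Plvap (-1.69) had log2 changes of -0.32 to 0.10. Among aerocyte markers, Car4 (-1.92), Prx (-1.79), Tbx2 (-1.65) and Ednrb (-1.21) fell, Apln (1.36) rose and Fibin (0.12) was not called. The part of cell makeup in the fall of Thbd was not tested.

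Procr, the receptor that hands protein C to thrombomodulin, went the other way from Thbd. It stood at 103, 160, 104, 151 and 153 CPM in sham lungs, against 154, 185, 134, 129 and 99.0 CPM in Glenn lungs on the control diet. The deficient-diet values were 85.0, 100, 117, 136 and 139 CPM in sham lungs, against 187, 212, 144, 111 and 122 CPM in Glenn lungs. The excess-diet values were 104, 95.4, 104, 115 and 118 CPM in sham lungs, against 305, 153, 110, 163 and 224 CPM in Glenn lungs. The surgeries overlapped on every diet, least on the excess diet, where 4 of 5 Glenn libraries were above all sham libraries. The averaged change was 0.45 (SE 0.13, edgeR adjusted p = 0.00394), and of the single diets only the excess diet was called, at 0.95 (SE 0.24, adjusted p = 0.00458). The control and deficient diets gave 0.06 (adjusted p = 0.88) and 0.35 (adjusted p = 0.278). Without Glenn excess replicate 1, at 305 CPM, the excess-diet change was 0.62 (adjusted p = 0.0863). On the deficient diet it was 0.97 with series A alone (adjusted p = 0.0203) and 0.97 among RT1-CE16-low libraries (adjusted p = 0.0225). On that diet, both settings use the same 2 sham and 3 Glenn libraries.

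The plasminogen activators moved in opposite directions. Plat, which encodes the tissue-type activator that endothelium secretes, stood at 483, 618, 496, 577 and 522 CPM in sham lungs, against 299, 479, 383, 310 and 311 CPM in Glenn lungs on the control diet. Its deficient-diet values were 413, 502, 529, 796 and 678 CPM in sham lungs, against 351, 514, 431, 258 and 293 CPM in Glenn lungs. Its excess-diet values were 756, 634, 813, 737 and 587 CPM in sham lungs, against 406, 489, 360, 415 and 294 CPM in Glenn lungs. The surgeries overlapped on the deficient diet only. Plat fell by 0.60 (SE 0.18, edgeR adjusted p = 0.0128), 0.72 (SE 0.19, adjusted p = 0.00436) and 0.76 (SE 0.20, adjusted p = 0.00584) with control, deficient and excess vitamin A, and by 0.69 (SE 0.10, edgeR adjusted p = 2.36e-06) averaged over them.

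In the deficient-diet groups, the RT1-CE16-high libraries were exactly those of series B, so that level and series cannot be told apart there. In Glenn excess the 3 high libraries were likewise those of series B, and all sham excess libraries were low and of series A. Level and series thus cannot be told apart in the excess-diet surgery contrasts either. Plat averaged 457.5 CPM in the 2 low and 667.9 CPM in the 3 high libraries after sham, and 432 CPM in the 3 low and 275.3 CPM in the 2 high libraries after Glenn. On the control diet, all of series A, it averaged 550.4 CPM in the 2 low and 531.8 CPM in the 3 high sham libraries, and 386.9 CPM in the 3 low and 310.7 CPM in the 2 high Glenn libraries. The deficient-diet change of Plat was -0.08 among RT1-CE16-low libraries (adjusted p = 0.843) and -0.08 with series A alone (adjusted p = 0.84), and -0.68 (adjusted p = 0.0708) when only its 2 groups were fitted. On the control diet it was -0.50 (adjusted p = 0.142) among RT1-CE16-low libraries. The single-diet falls of Plat on these diets thus depended on which libraries were used, while the averaged fall passed the threshold in every alternative.

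Plau encodes urokinase, which works on the cell surface through its receptor PLAUR. On the control diet it stood at 32.9, 43.4, 51.1, 53.2 and 62.5 CPM in sham lungs, against 94.4, 51.4, 53.4, 62.7 and 59.3 CPM in Glenn lungs. The deficient-diet values were 33.0, 39.1, 61.8, 66.0 and 57.8 CPM in sham lungs, against 94.6, 84.1, 66.8, 77.2 and 84.5 CPM in Glenn lungs. The excess-diet values were 41.7, 36.9, 37.4, 33.4 and 36.1 CPM in sham lungs, against 117, 99.9, 71.8, 79.4 and 115 CPM in Glenn lungs. The surgeries did not overlap on the deficient and excess diets and did on the control diet. The change was 0.40 (SE 0.19, edgeR adjusted p = 0.124) on the control diet, 0.71 (SE 0.20, adjusted p = 0.0076) on the deficient diet and 1.30 (SE 0.21, adjusted p = 2.65e-05) on the excess diet. Averaged over diets, Plau rose by 0.80 (SE 0.11, edgeR adjusted p = 7.29e-07). Among RT1-CE16-low libraries the control-diet rise was called (0.81, adjusted p = 0.0344). In sham lungs, low and high libraries averaged 38.14 and 55.59 CPM of Plau on the control diet, and 36.02 and 61.88 CPM on the deficient diet. The sham excess libraries, all low, averaged 37.09 CPM. After Glenn, low and high libraries averaged 66.4 and 60.98 CPM (control), 81.84 and 80.84 CPM (deficient), and 108.2 and 88.84 CPM (excess). The part of this split in the differences between diets was not tested.

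**Figure D3:**
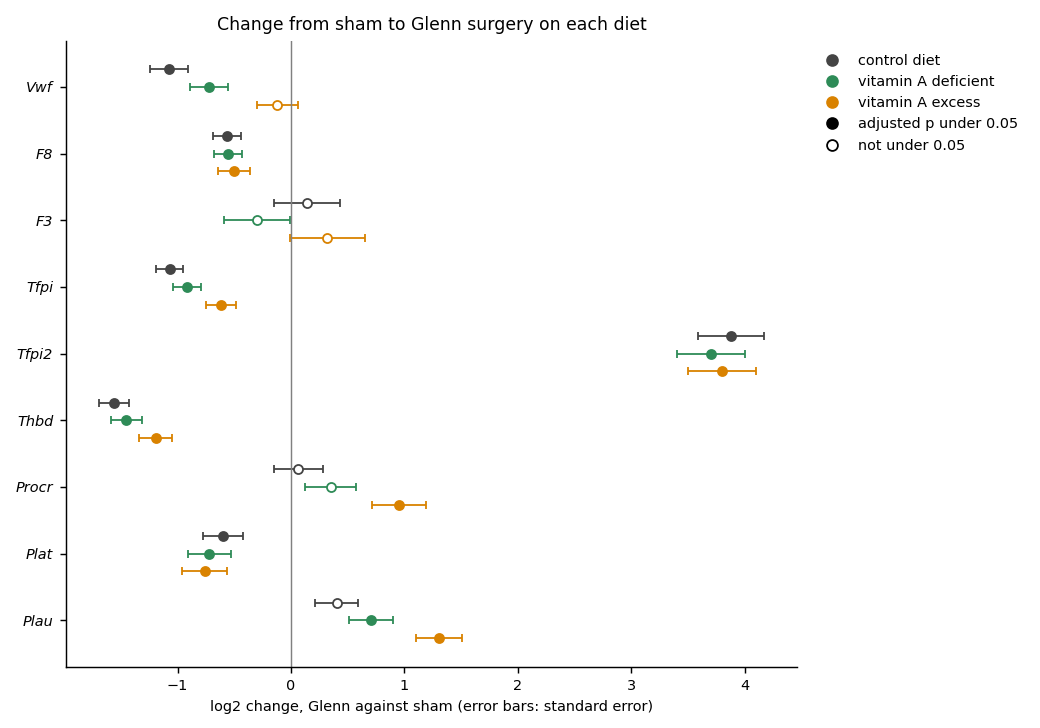
Fitted log2 change from sham to Glenn (x axis; points, with standard errors as bars) for each gene (y axis) on each diet; filled points have an adjusted p under 0.05. Tfpi2 sits at 3.70 to 3.88 on all diets, Thbd and Tfpi are below 0 on all, and Vwf ranges from -1.08 on the control diet to -0.12 on the excess diet.

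In counts, Glenn against sham called 1 member higher and 5 lower on the control diet, where 11.8% of all genes tested were called higher and 13.1% lower. On the deficient diet 2 members were higher and 5 lower, beside 13.7% and 13.7% of all genes. On the excess diet 3 members were higher and 4 lower, beside 11.6% and 10.4%. Averaged over diets 3 were higher and 5 lower, beside 23.4% and 24.7% of all genes. The members' median log2 change averaged over diets was -0.54, and that of all genes -0.0132. Between all 15 sham and all 15 Glenn libraries only Thbd and Tfpi2 did not overlap, as 5.83% of all genes did not. Within the control, deficient and excess diets, the surgeries did not overlap for 17.2%, 19.6% and 16.3% of all genes. With RT1-CE16-low libraries alone, 4, 6 and 7 members were called with control, deficient and excess vitamin A, and 8 on average. By direction these were 2 higher and 2 lower (control), 3 and 3 (deficient), 3 and 4 (excess), and 3 and 5 on average. Over all genes, that setting called 1563, 2398 and 2152 genes, and 5354 on average. The fit on all libraries called 4023, 4423 and 3549 genes, and 7792 on average.

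In the order of the 6 group means, the 3 sham groups were above the 3 Glenn groups for Vwf, F8, Thbd, Tfpi and Plat, and below them for Tfpi2, Procr and Plau; for F3 the surgeries were interleaved. Between neighbours in that order, the step from sham to Glenn was called for F8 (edgeR adjusted p = 0.0401), Thbd (adjusted p = 6.87e-08), Tfpi (adjusted p = 0.000842) and Tfpi2 (adjusted p = 1.65e-10), and no other step of any member was. Of the 15 possible pairs of groups, Tfpi differed in 10, F8, Thbd and Tfpi2 in 9 each, Plat in 8, Vwf and Plau in 7 each, Procr in 3 and F3 in 0.

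No member was called for diet after sham. Neither the deficient diet against control (0% of all genes called) nor the excess diet against control (0.241%) called a member in edgeR, DESeq2 or limma, and 0 and 2 members had an unadjusted p under 0.05. The 2 members on the excess diet were Plat and Plau, which differed in opposite directions. Plat was 539 ± 56.9 CPM (SD, n = 5) on the control and 706 ± 92.5 CPM (n = 5) on the excess diet. Its difference was 0.39 (SE 0.18, edgeR adjusted p = 0.418), and that of Plau -0.39 (SE 0.19, edgeR adjusted p = 0.449). On the deficient diet Plat was also above control, by 0.22 (SE 0.21). The sham excess libraries were all RT1-CE16-low, and the sham control libraries were of both kinds. After Glenn, the deficient diet against control called 0 members (0.00618% of all genes), again in all 3 tools, with 1 at an unadjusted p under 0.05. The excess against the deficient diet called 0 members after sham (0.0124% of all genes) and 0 after Glenn (0%) in the same tools, with 0 and 1 at an unadjusted p under 0.05.

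After Glenn, all 9 members had a fitted level above the control diet on the excess diet. Their median log2 difference was 0.469, beside 0.0167 over all genes. The members were measured in the same libraries, so they are not 9 separate observations. Called were 2 of them, Vwf at 0.72 (SE 0.18, edgeR adjusted p = 0.041) and Tfpi at 0.59 (SE 0.13, adjusted p = 0.0197), beside 1.47% of all genes. Thbd (0.47, adjusted p = 0.099), Procr (0.56, adjusted p = 0.266) and Plau (0.51, adjusted p = 0.229) were past an unadjusted p of 0.05 only. The groups overlapped for both called genes: Vwf was 542 to 1217 CPM on the control and 778 to 1631 CPM on the excess diet, and Tfpi 141 to 175 and 150 to 312 CPM.

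Both calls rested on few libraries. Without Glenn excess replicate 1, the highest of its group in Vwf, F8, Tfpi, Thbd, Tfpi2, Procr and Plau, Vwf was at 0.59 (adjusted p = 0.327) and Tfpi at 0.41 (adjusted p = 0.297). Leaving out Glenn control replicate 3 (0.60, adjusted p = 0.109; 0.54, adjusted p = 0.053) or replicate 5 (0.67, adjusted p = 0.129; 0.58, adjusted p = 0.0608) also ended both calls. The Vwf call was further lost without Glenn control replicate 4 (adjusted p = 0.123) or Glenn excess replicate 2 (0.0717), 4 (0.0655) or 5 (0.0623). All Glenn control libraries were of series A and 3 of the 5 Glenn excess libraries of series B, and without the series term neither gene was called. Those 3 were also the RT1-CE16-high libraries of Glenn excess.

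**Figure D4:**
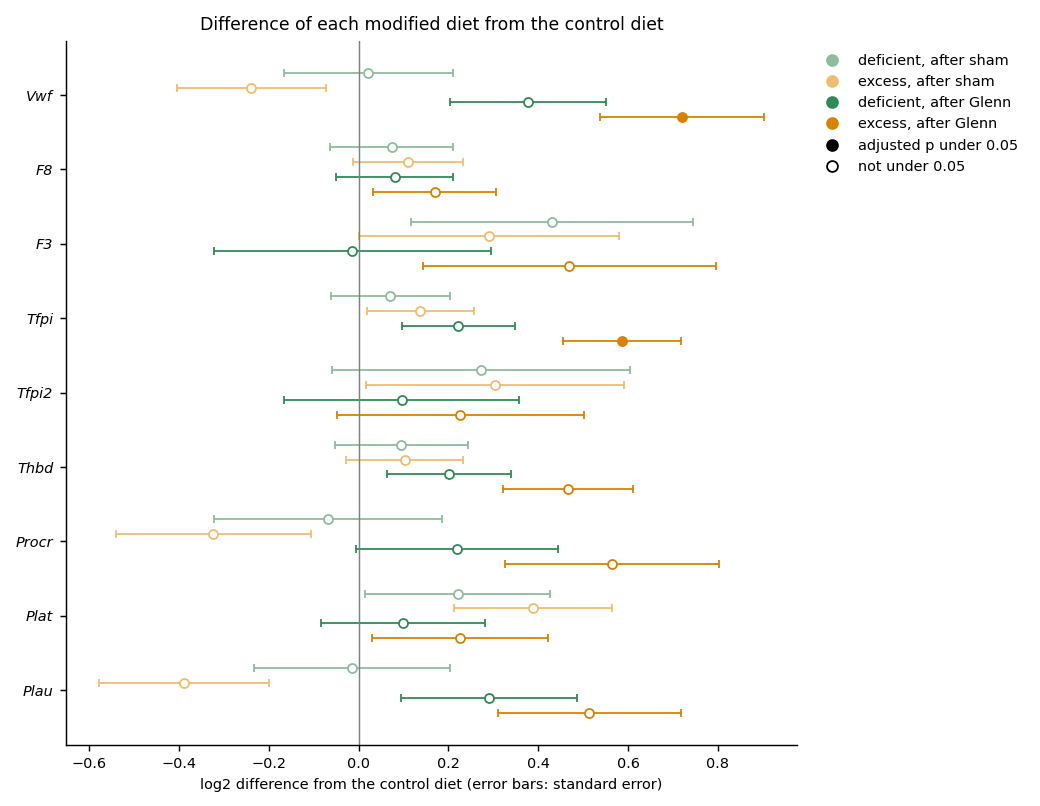
Fitted log2 difference of the deficient (green) and excess (orange) diets from the control diet (x axis, with standard errors as bars) after sham (pale) and Glenn (dark) for each gene (y axis). Filled points, with an adjusted p under 0.05, are Vwf at 0.72 and Tfpi at 0.59 on the excess diet after Glenn.

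The test of whether the surgery change differed between diets called no member in edgeR, DESeq2 or limma, and 0.00618% of all genes in edgeR. Without adjustment 3 were under 0.05, Vwf (edgeR adjusted p = 0.531), Plau (adjusted p = 0.747) and Procr (adjusted p = 0.851). Between the excess and control diets, the surgery change differed by 0.96 (SE 0.25, edgeR adjusted p = 0.204) for Vwf, 0.90 (SE 0.28, adjusted p = 0.369) for Plau and 0.89 (SE 0.32, adjusted p = 0.468) for Procr. The smaller fall of Vwf and the larger rises of Plau and Procr on the excess diet were thus not past the threshold for a difference between diets.

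Of 48 other genes of clotting and fibrinolysis, 37 could be tested, and averaged over diets 12 were higher after Glenn, 10 lower and 15 not called, where 48.2% of all genes were called (23.4% higher and 24.7% lower). The receptors that sense thrombin and related proteases were 3 higher and 1 lower of 4. F2r, the main thrombin receptor of endothelium, stood at 43.8 to 74.5 CPM (median 57.9) in sham and 113 to 191 CPM (median 154) in Glenn libraries, with no overlap. It rose by 1.37 (SE 0.07, edgeR adjusted p = 3.02e-15), and it was also called on each diet. F2rl3 (1.41, SE 0.15) and F2rl1 (0.45, SE 0.14) were the other receptors called higher, and F2rl2 (-0.90, SE 0.26) the one called lower, none above 15.2 CPM in any library; these were picked out after their values were seen.

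Among 10 genes of fibrinolysis and its inhibitors, 5 rose, 0 fell and 5 were not called, so the share called was close to the 48.2% of all genes. Plaur, the urokinase receptor, rose from 3.57 to 8.31 CPM (median 6.09) to 7.17 to 14.4 CPM (median 10.1), by 0.73 (SE 0.11, edgeR adjusted p = 1.7e-06), and was called on each diet. The other 4, picked out by their calls, were Serpine2 (0.78), which inhibits thrombin and plasminogen activators, Anxa2 (0.35) and S100a10 (0.73), which together bind tissue-type activator and plasminogen at the cell surface, and Lrp1 (0.34), which clears activator and inhibitor complexes.

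Of 11 genes for storage and secretion of von Willebrand factor and factor VIII, 3 rose, 3 fell and 5 were not called, again close to the 48.2% called among all genes. Selp, the P-selectin that shares the Weibel-Palade bodies of endothelium with von Willebrand factor, was at 26.8 to 58.3 CPM (median 38.9) after sham and 45.5 to 162 CPM (median 75.4) after Glenn. It rose by 1.03 (SE 0.11, edgeR adjusted p = 9.94e-09), where Vwf fell by 0.64. Lman1 (-0.25) and Mcfd2 (-0.18), which form the receptor that carries factor VIII out of the endoplasmic reticulum, were among the lower genes, with Myrip (-0.59), and Cd63 (0.38) and Unc13d (0.38) among the higher; these 5 were picked out by their calls.

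Circulating factors were mostly too low to test. Of 14 coagulation factors, 6 were tested, with F11 (-0.92), F13a1 (-1.32) and Fgg (-0.36) lower and F10 (1.37, at a mean of 0.229 CPM) higher, all picked out by their calls. Of 7 anticoagulants, 4 were tested and 2 were lower, Serpind1 (-0.98) and Hs3st1 (-0.19), also picked out by their calls. Protein C itself (Proc), the substrate of the thrombomodulin and Procr pair, had 142 counts over the whole table, in 23 libraries with at most 17 counts in one, and was not tested. Its cofactor protein S (Pros1) was at 143 to 198 CPM (median 176) after sham and 150 to 201 CPM (median 176) after Glenn, a change of 0.01 (SE 0.04, edgeR adjusted p = 0.852). The vitamin K pair, which readies clotting factors, gave 1 lower, Ggcx at -0.30, and 1 not called.

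**Figure D5:**
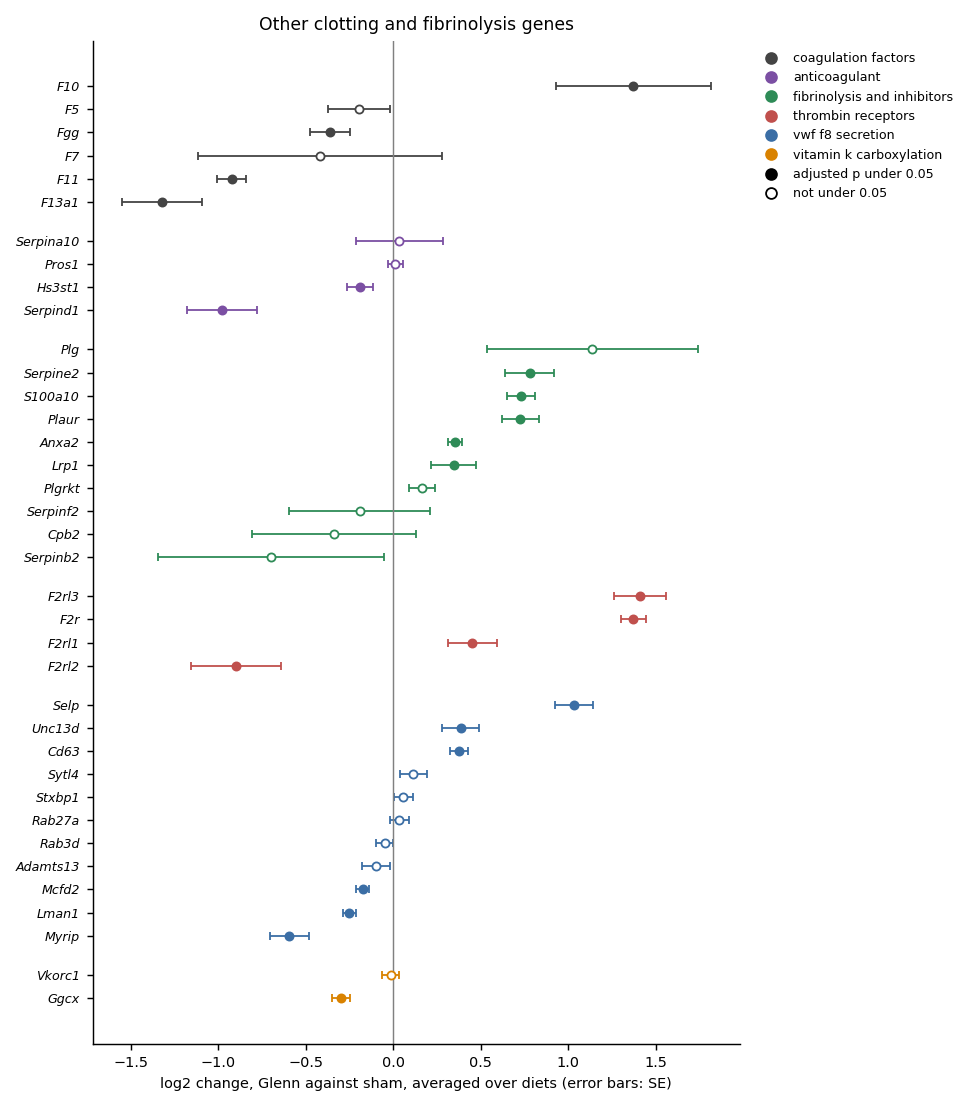
Fitted log2 change from sham to Glenn averaged over diets (x axis, standard errors as bars) for the 37 tested genes of 6 lists (y axis, coloured by list); filled points have an adjusted p under 0.05. F2r and F2rl3 lie near 1.4, and Plaur and S100a10 near 0.7.

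Within groups, the members varied together only in part. After each group's mean was subtracted, Pearson correlations of log2(CPM + 1) over the 30 libraries were highest for Procr with Tfpi2 (r = 0.637) and Vwf with F8 (r = 0.601) and lowest for F3 with Plau (r = -0.445). These libraries share their series and RT1-CE16 level, so the values are descriptions. The same measure over all genes put Ece1 (r = 0.885) and Slc12a7 (0.867) nearest to Vwf, Notch1 (0.792) and Dst (0.779) nearest to F8, and Efnb1 (0.874) and Gpr146 (0.866) nearest to Thbd. Nearest to Tfpi were Man1b1 (0.785) and Dcbld1 (0.743), and nearest to Tfpi2 were Zc3h12a (0.776) and Rnd1 (0.739). Irx1 (0.890) and Cd74 (0.841) were nearest to F3, Tmem41a (0.818) and Sirt5 (0.814) to Procr, Rufy4 (0.799) and Wbp1l (0.782) to Plat, and Itm2b (0.799) and Cav2 (0.795) to Plau.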

How the data were processed

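RNA of 30 libraries of CD31-enriched rat lung cells was sequenced after SMART-Seq v4 preparation, per the labels' protocols. The authors deposited estimated counts per gene; the submitters' processing notes name Trim Galore, STAR, Salmon, FastQC and Picard and the builds mRatBN7.2 and rn7, and annotation release and strand use are not given in the sources used here. Of the values, 13.6% were not whole, and all were rounded. Depth was 22 to 77.6 M (mega) counts per library.

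Counts were filtered (filterByExpr, minimum count 10, minimum total 15), scaled by TMM (0.938 to 1.06) and fitted in edgeR 4.0.16 (quasi-likelihood, robust, R 4.3.3) with 6 group means and the library series. P-values were Benjamini-Hochberg adjusted over 16171 genes, and an adjusted p under 0.05 is a call. CPM are TMM-scaled counts at 1 M per library; SE is the log2 change over the square root of F. A simulated Glenn against sham comparison on the control diet (16005 genes, 200 changed) returned 186 with 8 false calls, and 37 of 50 at a fold of 1.5. Alternatives used DESeq2 1.42.0, limma 3.58.1 voom, other terms, filters and libraries. Members and lists were chosen with earlier results of these data known. By rule, the text names all members, F2r, Selp, Plaur, Proc and Pros1 (mean of at least 1 CPM, called alike on all diets with an averaged absolute log2 change of at least 1, or direct partner of a member), Pecam1 and Cdh5, and for each member the 2 genes of highest correlation; other listed genes and markers were named after their values were seen. Motifs were chosen after the changes were known. One gene of the fibrinolysis list is not reported here.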

Additional observations from a re-analysis of the deposited data

Results flagged for a closer look

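In 54 sets of 5 libraries (9 genes in 6 groups), 2 held a library whose gap to the next, as a share of the group's range, was above the 95% critical value of Dixon's test (0.71), where chance gives about 2.7. F3 in sham deficient replicate 2 was one, with a gap share of 0.766: it stood at 361.3 CPM, and the other 4 libraries at 84.61 to 149.4 CPM. Plau in Glenn control replicate 1 was the other, with a gap share of 0.738: it stood at 94.41 CPM, and the others at 51.36 to 62.66 CPM. Without that library the control-diet change of Plau was 0.22.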

How the results depend on the processing

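Over 94 single-gene results and 2315 values under alternatives, 2274 kept their side of the threshold, 34 fell below it and 7 passed it. Of values called in the fit reported or in the alternative, 0 reversed direction. Where neither was called, direction was not compared. The averaged surgery contrast called 8 members under each alternative and with each library left out, and F3 stayed uncalled. The number of members called on the excess against the control diet after Glenn was the count of members that moved by more than 1.5 times: 2 in the fit reported, 0 with no series term, with an RT1-CE16 term, with RT1-CE16-low libraries only and with only the groups compared, 1 with series A only, with no filter and with a sex term, 3 with DESeq2 and with limma voom, and 0 to 3 with single libraries left out. The cause was not tested. Smaller moves were 6 to 4 on the control diet (RT1-CE16-low libraries only), 7 to 6 on the deficient diet (series A only, RT1-CE16-low libraries only, only the groups compared) and 7 to 6 on the excess diet (series A only, only the groups compared, without Glenn excess replicate 1). With RT1-CE16-low libraries only, the control diet went from 1 higher and 5 lower to 2 and 2. The deficient diet went from 2 higher and 5 lower to 3 and 3 in that setting. With the replicate number as a block, the excess against the control diet after Glenn called 0 members, so neither Vwf nor Tfpi. The block changed no other count of members called. Same-numbered libraries deviated together in part, and the labels give no shared origin. Of 75 pairs, 39 had a correlation over 0.1 (-0.275 to 0.319), including all 5 of sham control with sham deficient and of sham deficient with Glenn excess. A library's nearest match among the 5 of another group had its own number in 62 of 150 cases (41.3%), where chance gives 1 in 5. For 0 of 30 libraries was this so in every group. Replicates 1 and 2 were RT1-CE16-low in every group, and 4 and 5 high in every group but sham excess, so the number also follows RT1-CE16 level. The numbers were therefore not taken to pair the libraries throughout. The order of group means was the same with DESeq2 size factors. Low counts kept Proc and 10 other listed genes from being tested.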
